A study of Mus musculus with 4 samples.

Results

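The 10 genes described here belong to the Hippo pathway, and its transcription factors are among them. They are the coactivators Yap1 and Wwtr1, the DNA-binding factors Tead1, Tead2, Tead3 and Tead4, and the kinases Lats1 and Lats2. The upstream regulators Amot and Nf2 complete the set. All 10 were chosen by name, for their place in the pathway. Each was found among the 53715 rows of the gene table by matching Ensembl IDs to GENCODE M21 symbols. The measurements are RNA sequencing counts of polyA RNA from whole mouse embryos of the 2-cell stage and the strain C57BL/DBA2. Knockdown embryos were injected as zygotes with an siRNA of SPENH0335 (2 libraries), and control embryos with the control siRNA siNC (2 libraries), both at 20 μM. All embryos came from oviduct zygotes cultured in KSOM, an embryo medium. By the series' title, SPENH0335 would be an enhancer-derived RNA. The table has no row named for it, so the depth of the knockdown is not measured here.

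The Hippo pathway is a kinase cascade in which Stk3 and Stk4 activate Lats1 and Lats2, which phosphorylate Yap1 and Wwtr1 and keep them out of the nucleus. Unphosphorylated Yap1 and Wwtr1 enter the nucleus and switch on genes by binding the Tead factors. In the mouse embryo this switch later separates the outer cells, which become trophectoderm, from the inner cell mass, and Tead4 is needed for the trophectoderm. Since the pathway acts mainly through phosphorylation and localisation of proteins, RNA levels describe its parts and not its activity.

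Libraries held 94257563 and 99011109 counts in knockdown and 87900405 and 78865491 counts in control, of which the 10 genes together took 30690 and 27698 in knockdown and 24570 and 23146 in control. All 9 genes listed for the 2-cell embryo were detected in every library. They summed to 4670 and 4680 CPM (counts per 1000000, scaled between libraries by edgeR's TMM factors) in knockdown and 4500 and 4690 in control. Dppa3 and Obox5 made up most of that sum. Genes of the oocyte, such as Gdf9 and Zp3, are among the 9, so the sum does not mark the stage by itself. Zscan4f had 238 and 211 CPM in knockdown, against 147 and 158 CPM in control, and Zscan4d and Zfp352 were also above both controls. Gdf9 had 273 and 299 CPM in knockdown, against 387 and 369 CPM in control, and Tcstv3 was also below both controls. The other genes of the 9 overlapped between groups, and none of the 9 passed the edgeR test given below. Of all genes tested, 32.7% did not overlap, 15.6% with knockdown higher and 17.1% with knockdown lower. The 13 cumulus and granulosa markers summed to between 101 and 111 CPM in knockdown and between 99.6 and 114 CPM in control. Cyp19a1, at 36.8 and 55.7 CPM in knockdown and 47.4 and 38.6 CPM in control, made up most of that sum with Kitl and Nr5a2. Of the 13, 6 averaged under 1 CPM, with Inha at 0 everywhere. Has2 was below both controls, at 0.932 and 0.458 CPM in knockdown, against 2.65 and 2.58 CPM in control. Foxl2 was too, at 0.228 and 0.021 CPM in knockdown, against 0.891 and 1.10 CPM in control. Fshr was above both, at 0.798 and 1.24 CPM in knockdown, against 0.609 and 0.361 CPM in control. The other markers of that list overlapped between groups. Blood markers summed to 11.9 to 29.1 CPM in knockdown and 30.6 to 47.9 CPM in control. Among them, Hba-a1 had 24.9 and 10.4 CPM in knockdown and 26.2 and 27.1 CPM in control. Lyz2 reached 19.4 CPM in control replicate 2, and Hbb-bs was at 0. Oviduct and stroma markers summed to 6.99 to 9.19 CPM in knockdown and 7.01 to 9.82 CPM in control, with Vim the highest and Col3a1 at 0. Sperm markers summed to 10.3 to 19.1 CPM in knockdown and 13.3 to 15.3 CPM in control. The sources used here do not say whether the libraries came from separate embryo collections or how many embryos each holds. A p-value therefore sets the group difference against the spread within groups of libraries that may be technical replicates. In such bulk RNA, fewer cells of a type and less RNA per cell cannot be told apart.

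Yap1 was by far the most abundant of the 10 transcripts. It lies on the minus strand of chromosome 9 (7931999 to 8004596, GRCm38; ENSMUSG00000053110.13). Its level was 226 and 228 CPM in the knockdown libraries, against 202 and 199 CPM in the control libraries. Both knockdown libraries lay above both control libraries, and the replicates of each group were nearly level with each other. The means were 227 ± 1.69 CPM in knockdown and 200 ± 1.83 CPM in control (SD, n = 2 each), a log2 fold change of 0.18 (SE 0.10, 95% interval -0.06 to 0.42) that did not pass the test (edgeR quasi-likelihood test, adjusted p 0.9999 over 25565 genes). The antisense gene Gm20416 shares 116 bases of the Yap1 exons and had at most 11 counts in a library. Wwtr1, which encodes the related coactivator TAZ (chromosome 3, 57455649 to 57575910, minus strand), had 6.92 and 2.56 CPM in knockdown, against 4.003 and 4.87 CPM in control. The knockdown libraries bracketed both controls, so the groups overlapped, and the log2 fold change was 0.10 (SE 0.53).

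Per length, Yap1 made up nearly the whole coactivator pool. When CPM is divided by the kilobases of a gene's merged exons (CPM per kb), Yap1 took 94.4 and 97.9% of the Yap1 plus Wwtr1 sum in the knockdown libraries and 96.3 and 95.5% in the control libraries. The largest Wwtr1 share, 5.60%, and the smallest, 2.12%, both came from knockdown libraries.

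The 4 Tead genes, which encode the DNA-binding partners of the coactivators, were all low. Tead1 lies on chromosome 7 (112679318 to 112906807, plus strand), Tead2 on the same chromosome (45215753 to 45233644, plus strand), Tead3 on chromosome 17 (28331671 to 28350817, minus strand) and Tead4 on chromosome 6 (128224288 to 128300823, minus strand). Because a read can be assigned to one Tead gene only where their sequences differ, the window of 60 coding bases in which they were most alike is shown, from windows moved codon by codon along Tead1, taken from GENCODE M21 transcripts on GRCm38, 5′ to 3′ on the coding strand, with capitals at the positions where the genes do not all have the same base.
Tead1, chr7:112759525-112759584: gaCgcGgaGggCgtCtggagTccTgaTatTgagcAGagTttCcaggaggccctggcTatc
Tead2, chr7:45217336-45217395: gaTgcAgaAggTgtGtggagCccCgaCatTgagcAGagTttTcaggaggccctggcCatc
Tead3, chr17:28341404-28341463: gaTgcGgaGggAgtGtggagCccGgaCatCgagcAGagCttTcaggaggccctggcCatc
Tead4, chr6:128270923-128270982: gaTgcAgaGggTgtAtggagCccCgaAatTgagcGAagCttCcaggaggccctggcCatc
In this window 46 of 60 positions were the same in all 4 genes. The longest run without a difference was 17 coding bases between Tead1 and each of the others, 35 between Tead2 and Tead3, 23 between Tead2 and Tead4, and 59 between Tead3 and Tead4. The run shared by Tead3 and Tead4 was the longest of these and is shown for that reason. It spans an exon junction in both genes, with most of it at chr17:28332951-28333001 in Tead3 and chr6:128228568-128228618 in Tead4.
Tead3 and Tead4: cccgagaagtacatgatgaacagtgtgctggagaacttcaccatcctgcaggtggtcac
Reads that lie within this run cannot be told apart between Tead3 and Tead4, and the sources used here do not say how the authors' counting assigned such reads.

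Tead1 had 10.9 and 6.26 CPM in knockdown, against 5.49 and 11.5 CPM in control. Tead2 had 4.12 and 2.42 CPM in knockdown, against 2.66 and 5.65 CPM in control. Tead4 had 1.02 and 0.586 CPM in knockdown, against 0.237 and 1.25 CPM in control. In these 3 genes knockdown replicate 1 and control replicate 2 were high and the other libraries low, so the order of the libraries was not that of the groups. Tead3 had 0.539 and 1.31 CPM in knockdown, against 0.744 and 0.398 CPM in control, with its highest value in knockdown replicate 2. The groups overlapped for all 4 genes.

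The Tead fold changes were small beside their errors. The log2 fold change was 0.01 for Tead1 (SE 0.47), -0.35 for Tead2 (SE 0.52), 0.11 for Tead4 (SE 0.98) and 0.69 for Tead3 (SE 0.82), and none was called by edgeR (adjusted p 0.9999 for each). Tead4 rested on few reads, 98 and 55 counts in knockdown and 21 and 100 counts in control. Its control replicates differed by 2.37 on the log2 scale, while counting error alone gives a standard deviation of 0.35 for that difference. Tead4 took the other sign without control replicate 1 (log2 fold change -0.63) and without knockdown replicate 1 (-0.34), and Tead1 did so without the same libraries (-0.42 and -0.44).

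Tead1 and Tead2 together made up most of the Tead pool per length. Tead2 took 42.5 and 38.1% of the summed Tead CPM per kb in knockdown, against 48.9 and 48.5% in control. Tead1 took 39.6 and 34.9% in knockdown, against 35.6 and 34.8% in control. The share of Tead4 was 13.9 and 12.3% in knockdown, against 5.79 and 14.2% in control. The share of Tead3 ran from 3.96 to 14.7% in knockdown and from 2.44 to 9.75% in control. The Tead2 share was lower in both knockdown libraries than in both controls, while the other 3 shares overlapped across groups. With 2 libraries against 2 the smallest p an exact permutation test can give is 0.333, so these shares were not tested.

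**Figure D1:**
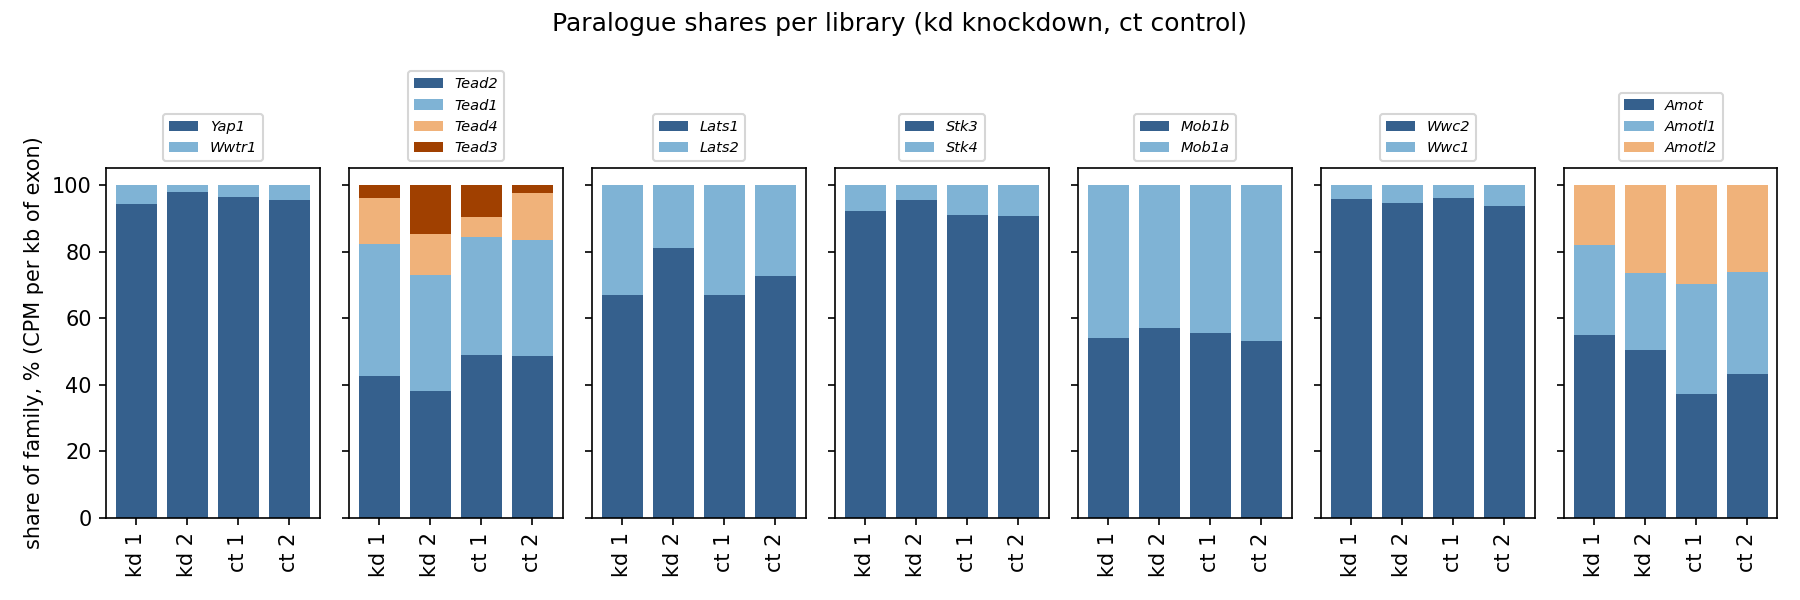
Share of each paralogue within its family in every library, in percent of the family's summed CPM per kb, for the coactivators, Tead factors, Lats kinases, Stk kinases, Mob cofactors, Wwc proteins and angiomotins (kd, knockdown; ct, control). Yap1 took at least 94.4% of its pair in each library, while Tead1 and Tead2 divided most of the Tead sum.

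The Lats kinases were represented mainly by Lats1. Lats1 (chromosome 10, 7681214 to 7716460, plus strand) had 9.87 and 5.86 CPM in knockdown, against 7.76 and 9.64 CPM in control. Lats2 (chromosome 14, 57689662 to 57758388, minus strand) had 4.63 and 1.32 CPM in knockdown, against 3.65 and 3.45 CPM in control. For both genes the lowest value was in knockdown replicate 2 and the highest in knockdown replicate 1, so the groups overlapped. The log2 fold changes were -0.14 for Lats1 (SE 0.35) and -0.25 for Lats2 (SE 0.63). Without knockdown replicate 1 the Lats2 value was -1.43, with an edgeR adjusted p of 0.283, and without knockdown replicate 2 it was 0.39.

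Lats1 took 67.1 and 80.9% of the Lats sum per length in knockdown, against 67.0 and 72.8% in control. The value for Lats2 carries a limit of annotation. GENCODE M21 places a second protein-coding gene, Gm49361, on the same strand, and it shares 2955 bases, or 42.4%, of the Lats2 exons. Gm49361 had 0 counts in all 4 libraries, and the sources used here do not say whether reads from the shared exons were counted for Lats2 or dropped. If only the 4016 unshared bases of Lats2 are counted as its length, the Lats1 share is 62.5% in knockdown and 57.2% in control.

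Amot encodes angiomotin, a scaffold that holds Yap1 at junctions and, in inner cells of the later embryo, helps to activate Lats. It lies on chromosome X (145446425 to 145505181, minus strand) and had 7.65 and 6.83 CPM in knockdown, against 5.98 and 5.12 CPM in control. Both knockdown libraries were above both controls, with a log2 fold change of 0.38 (SE 0.29, 95% interval -0.33 to 1.10, edgeR adjusted p 0.9999). Nf2 encodes merlin, a membrane-linked protein that brings Lats kinases to the membrane. It lies on chromosome 11 (4765845 to 4849536, minus strand) and had 46.5 and 39.7 CPM in knockdown, against 44.9 and 47.2 CPM in control, so that the groups overlapped. Its log2 fold change was -0.10 (SE 0.16, 95% interval -0.50 to 0.31).

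**Figure D2:**
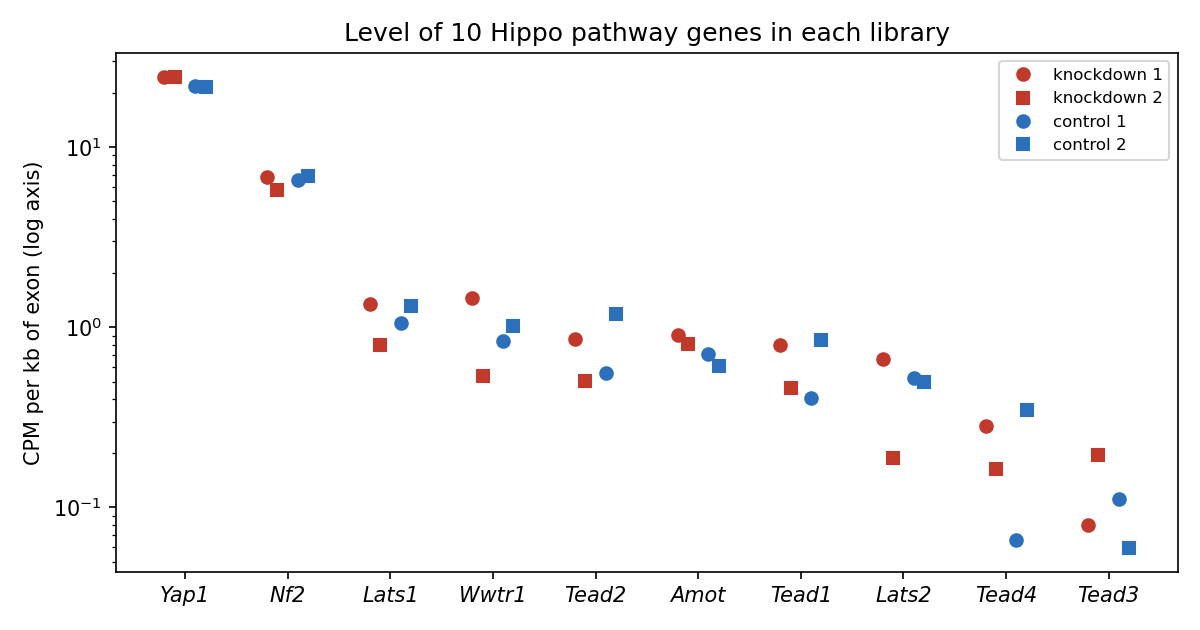
Level of each of the 10 genes in each library, in CPM per kb of merged exons on a log axis, ordered by the mean of the 4 libraries (red, knockdown; blue, control; circles, replicate 1; squares, replicate 2). Yap1 and Nf2 stand above the other 8 genes in every library.

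Ordered by the mean of all 4 libraries in CPM per kb, the genes ran from Yap1 (23.1 ± 1.67, SD, n = 4) and Nf2 (6.53 ± 0.50) through Lats1 (1.13 ± 0.26), Wwtr1 (0.960 ± 0.38), Tead2 (0.776 ± 0.31), Amot (0.761 ± 0.13), Tead1 (0.629 ± 0.23) and Lats2 (0.468 ± 0.20) to Tead4 (0.214 ± 0.12) and Tead3 (0.111 ± 0.06). Yap1 did not overlap with Nf2, nor Nf2 with Lats1, in any library. From Lats1 down to Tead3, each gene's range over the 4 libraries overlapped that of its neighbour in the order. Within libraries, Lats2 was above Tead4 in 4 of 4, while every other pair of these neighbours changed places in at least 1 library and is not separated beyond its spread. The place of Lats2 depends on the length used: over the bases not shared with Gm49361 its mean is 0.813 CPM per kb (0.329 to 1.15 over the 4 libraries), above the means of Tead2, Amot and Tead1. Among the 17050 protein-coding genes tested, the mean level of Yap1 stood at percentile 88.5 and that of Nf2 at percentile 72.0, whereas Tead4 stood at 19.2 and Tead3 at 10.9. With the longest transcript as the length instead, Yap1 was at 40.5 and Nf2 at 9.44 CPM per kb and Tead4 and Tead3 were still the lowest, at 0.251 and 0.217.

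The genes closest to Yap1 in level over the 4 libraries, by the root mean square difference of log2 CPM per kb, were Hmgcll1 (0.017), Fmnl3 (0.033) and Thoc1 (0.040). Those closest to Tead4 were Krt78 (0.15), Entpd2 (0.16) and Pkp3 (0.17). Among 17049 genes compared, some are near any level by number alone, so this is a description of level.

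The comparison the design names is between knockdown and control embryos. None of the 10 passed the edgeR test in either direction, against 0% of all 25565 genes tested, and none had an unadjusted p under 0.05, against 3.85% of all genes. DESeq2 and limma-voom called none of the 10 either, DESeq2 against 0.208% of all genes. The smallest unadjusted p was 0.120 (edgeR, adjusted p 0.9999), for Yap1. The fold change was above 0 for 6 of 10 genes, against 49.7% of all genes, with a median log2 fold change of 0.06 against -0.0025 over all genes. The groups did not overlap for 2 of 10 genes, Yap1 and Amot, both higher in knockdown. Over all genes tested, 32.7% did not overlap, 15.6% with knockdown higher.

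**Figure D3:**
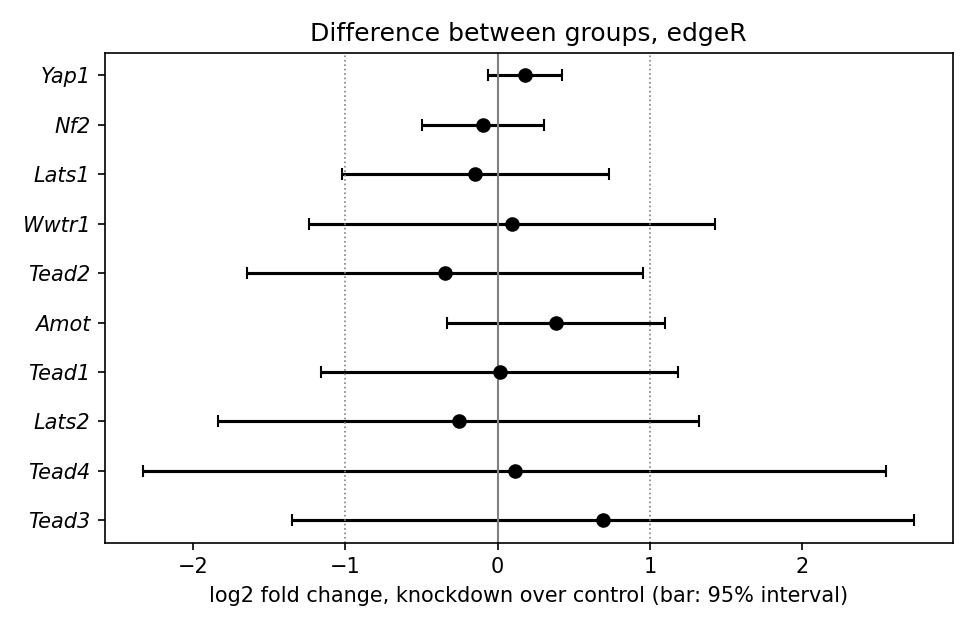
Log2 fold change of knockdown over control for each gene with its 95% interval from edgeR; dotted lines mark 2-fold in either direction. All 10 intervals include 0, and those of Yap1 and Nf2 lie inside 2-fold.

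The precision differed widely among the genes. The 95% interval lay within 2-fold in either direction for 2 of 10 genes, Yap1 and Nf2, against 31.8% of all genes tested. Only these 2 averaged 10 CPM or more, a level at which 87.8% of tested genes had such an interval. For Tead4 the interval ran from -2.32 to 2.55, and for Tead3 from -1.35 to 2.73, so differences of several-fold in these genes were not detectable with these libraries. For Wwtr1 it ran from -1.24 to 1.43 and for Lats2 from -1.84 to 1.33.

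The spread between replicates was wider than the difference between groups, in at least 1 group, for 8 of the 10 genes, the exceptions being Yap1 and Amot. The same share over all genes was not computed, so this count does not set the 10 genes apart. By the related measure of overlap, the groups were apart for 32.7% of all genes tested. The knockdown replicates differed by 1.81 on the log2 scale for Lats2 and by 1.44 for Wwtr1, above the 90th percentile of genes of like level (1.70 and 1.31). Counting error alone gives a standard deviation of 0.15 and 0.11 for these differences. The control replicates differed by 1.06 for Tead1, above a 90th percentile of 0.639. In knockdown, 6 of the 10 genes differed more between replicates than the median gene of like level, and in control 5 of 10 did. Yap1 differed by 0.02 in each group, below the medians of 0.21 in knockdown and 0.08 in control.

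**Figure D4:**
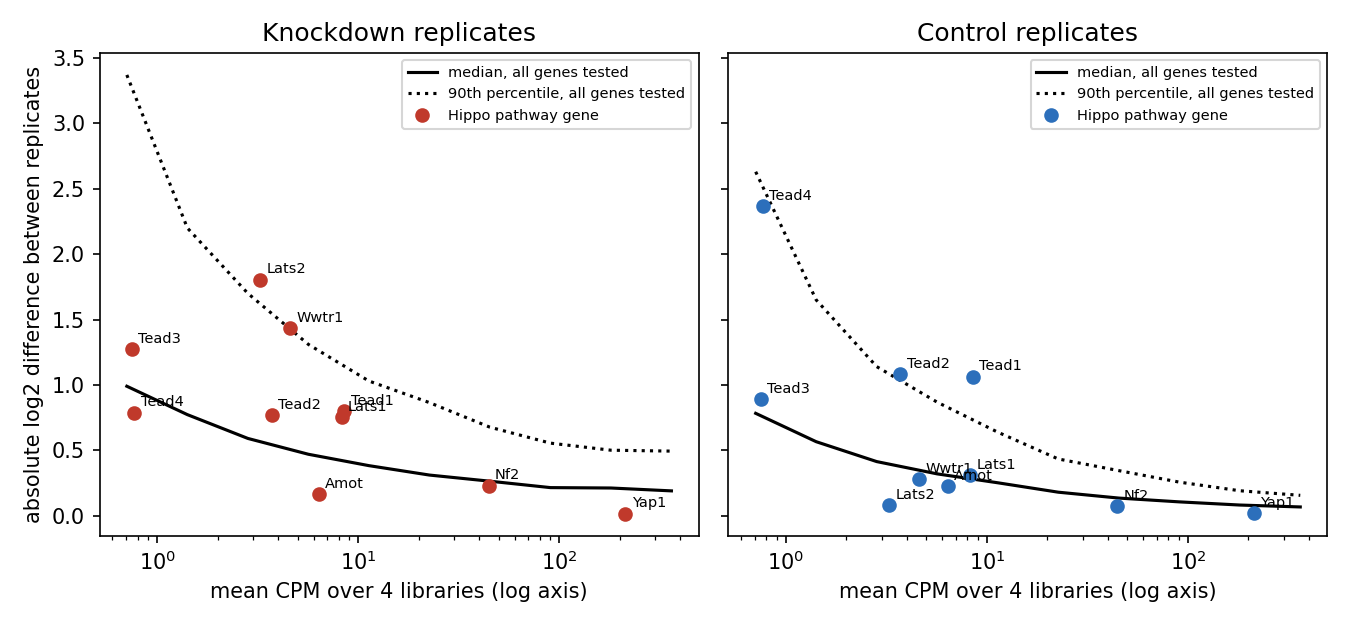
Absolute log2 difference between the 2 replicates of a group against mean CPM (log axis), in knockdown (left) and control (right); points are the 10 genes, and lines the median (solid) and 90th percentile (dotted) of all genes tested in bins of level. Lats2 and Wwtr1 in knockdown and Tead1 in control lie above the dotted line.

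Upstream of Lats, Stk3 was more abundant than Stk4. Stk3 and its paralogue Stk4 are the mammalian counterparts of the fly kinase hippo. Stk3 had 240 and 309 CPM in knockdown, against 237 and 234 CPM in control, and Stk4 had 19.2 and 13.7 CPM in knockdown, against 22.5 and 22.7 CPM in control. Stk3 lay above both controls and Stk4 below both, with log2 fold changes of 0.22 (SE 0.15) and -0.46 (SE 0.24) and an edgeR adjusted p of 0.9999 for each. Per length, Stk3 took 92.3 and 95.6% of the pair in knockdown, against 91.0 and 90.8% in control.

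Sav1, the scaffold of Stk3 and Stk4, averaged 4.48 ± 1.18 CPM in knockdown and 4.07 ± 0.68 CPM in control (SD, n = 2 each). Mob1a and Mob1b, the activating subunits of Lats, averaged 39.9 ± 4.38 and 155 ± 3.85 CPM in knockdown and 44.5 ± 2.37 and 166 ± 1.63 CPM in control. Mob1b took 53.9 to 56.9% of that pair per length in knockdown and 53.2 to 55.5% in control, closer to an even split than its CPM shows. This split depends on the length used. Merged exons measure 15033 bases in Mob1b and 4794 in Mob1a. The longest transcripts measure 8967 and 4412 bases, and with them the Mob1b share would be larger. Stk38 and Stk38l, kinases related to Lats, averaged 58.6 ± 8.90 and 47.9 ± 8.31 CPM in knockdown and 56.8 ± 0.52 and 45.6 ± 2.11 CPM in control. None of the 7 genes of this kinase cassette passed the test.

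Of the Vgll proteins, which bind Tead factors through their own motif, Vgll1 was the most abundant per length, at a mean of 6.14 CPM per kb over the 4 libraries against 1.06 for Vgll4. Vgll1 had 12.6 and 13.9 CPM in knockdown, against 16.8 and 17.04 CPM in control, below both controls with a log2 fold change of -0.36 (SE 0.21, edgeR adjusted p 0.9999). Vgll4, known as a repressor of Tead activity, averaged 5.78 ± 1.68 CPM in knockdown and 5.67 ± 0.75 CPM in control. Vgll2 had 0 counts in both knockdown libraries and 5 and 27 counts in control, and was too low to be tested. Vgll3 had 103 and 0 counts in knockdown and 0 and 143 counts in control, so that 1 library of each group held all of its reads.

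Among the junction partners, Wwc2 was the most abundant. Wwc1 (also called Kibra) and Wwc2 are scaffolds that act with Nf2 on Lats. Wwc2 had 387 and 428 CPM in knockdown, against 349 and 359 CPM in control, with both knockdown libraries above both controls and a log2 fold change of 0.20 (SE 0.10, edgeR adjusted p 0.9999). Wwc1 averaged 7.47 ± 1.93 CPM in knockdown and 6.89 ± 2.55 CPM in control, and Wwc2 took at least 93.7% of the pair per length in every library. Frmd6, a FERM-domain protein placed upstream in the pathway, averaged 4.48 ± 1.60 CPM in knockdown and 4.21 ± 0.14 CPM in control. Ptpn14, a phosphatase that binds Yap1, averaged 1.05 ± 0.68 CPM in knockdown and 1.24 ± 0.16 CPM in control. The tight-junction scaffold Tjp1 averaged 69.6 ± 2.42 CPM in knockdown and 67.5 ± 0.33 CPM in control. None of these genes passed the test.

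Amot was compared with its paralogues within each library. Amotl1 averaged 4.17 ± 0.54 CPM in knockdown and 5.35 ± 1.41 CPM in control, and Amotl2 averaged 2.28 ± 0.56 CPM in knockdown and 2.97 ± 0.89 CPM in control. Amot took 54.8 and 50.3% of the angiomotin sum per length in the knockdown libraries, against 37.2 and 43.1% in the control libraries. The groups did not overlap, and the difference was not tested, since an exact permutation test of 2 against 2 cannot go below 0.333.

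The wider pathway was read from 110 further genes in 8 lists, not counting repeats, of which 109 were tested and none passed, in either direction (edgeR). At an unadjusted p under 0.05 there was 1 gene higher and 1 lower, or 2 of 109, against 3.85% of all genes. Fold changes were above 0 for 56 of 109, with a median log2 fold change of 0.02. The groups did not overlap for 24 genes with knockdown higher and 15 with knockdown lower, against 15.6 and 17.1% of all genes.

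The gene with knockdown higher was Map4k5, of a kinase family that can activate Lats, at 380 and 400 CPM in knockdown, against 326 and 329 CPM in control (log2 fold change 0.25, SE 0.09). The list of 14 other upstream kinases that holds it had a median of 0.01 and also holds Stk11, the polarity kinase LKB1, at 38.7 and 33.4 CPM in knockdown and 27.2 and 27.8 CPM in control. The gene with knockdown lower was Pard6a, a subunit of the apical polarity complex, at 2.23 and 2.183 CPM in knockdown, against 4.74 and 3.70 CPM in control (log2 fold change -0.93, SE 0.37). The polarity and adhesion list had a median of 0.01 over 24 genes, and Fat4, a large cadherin whose fly relative acts upstream of the pathway, stood at 1.802 and 0.351 CPM in knockdown and 2.91 and 4.23 CPM in control. None of these passed over all genes (edgeR adjusted p 0.9999 for each).

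Proteins that hold Yap1 in the cytoplasm or mark it for decay, 16 genes with a median of 0.08, included Wwp1, a ubiquitin ligase, at 131 and 117 CPM in knockdown and 101 and 106 CPM in control. Ywhah, a 14-3-3 protein, was at 57.7 and 75.2 CPM in knockdown and 51.8 and 51.8 CPM in control. Inhibitors and phosphatases of the cascade had a median of 0.01 over 18 genes. In that list Wtip, an Ajuba-family protein that restrains Lats, had 11 and 0 counts in knockdown and 80 and 45 counts in control, and Strn3, a striatin of the STRIPAK phosphatase complex, had 24.5 and 14.4 CPM in knockdown and 12.4 and 14.3 CPM in control. Its paralogue Strn, named after its values were seen, was at 3077 and 3210 CPM in knockdown and 2987 and 3066 CPM in control, and took at least 98.4% of the striatin sum per length in every library.

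**Figure D5:**
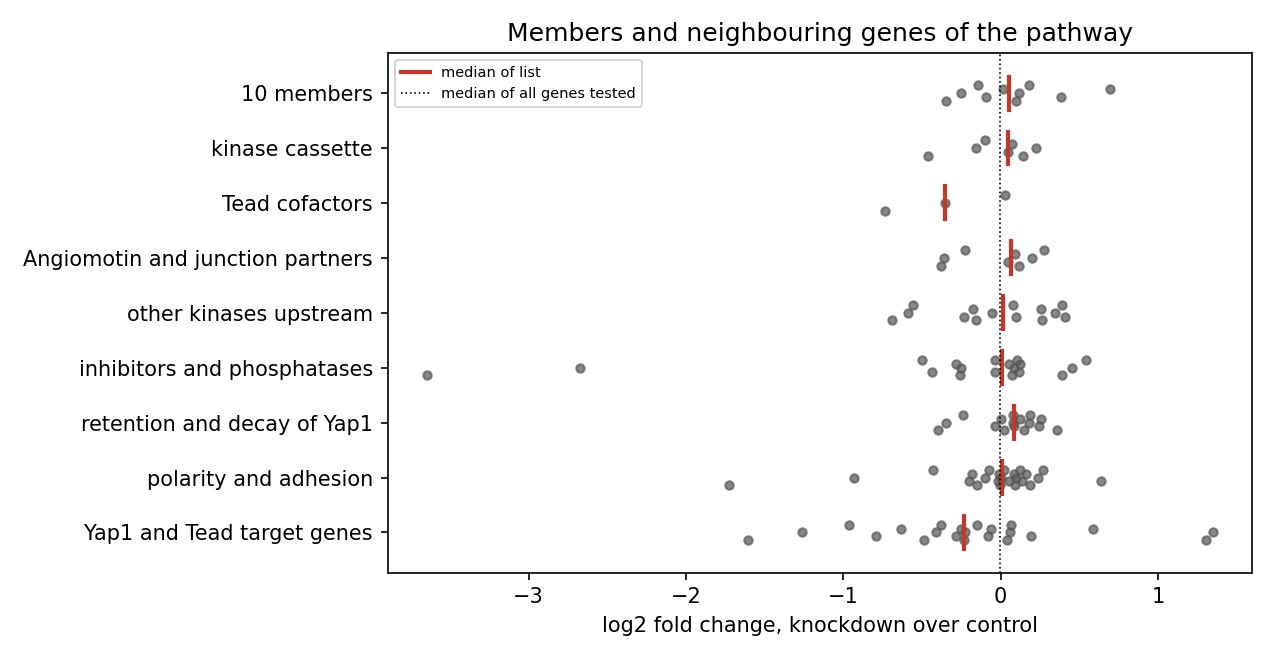
Log2 fold change of knockdown over control for the 10 genes and for each tested gene of 8 further lists (grey points), with the median of each list (red bar) and that of all genes tested (dotted line). No point in any list passed the test, and the list medians run from -0.36 for the Tead cofactors to 0.08 for retention and decay of Yap1.

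Known target genes of Yap1 and the Tead factors, 22 in all with Lats2 itself among them and mostly known from other tissues and stages, differed widely in level. Ccn1, a secreted matrix protein and a standard readout of Yap1, had 4.77 and 1.62 CPM in knockdown, against 1.56 and 1.02 CPM in control, a log2 fold change of 1.31 (SE 0.65). Ccn2, its relative, averaged 1.47 ± 0.22 CPM in knockdown and 1.79 ± 1.34 CPM in control. Cdx2, the trophectoderm factor that Tead4 switches on later, had 4 and 14 counts in knockdown and 0 and 37 counts in control. Gata3, another trophectoderm factor, averaged 45.7 ± 3.27 CPM in knockdown and 43.7 ± 1.33 CPM in control. Krt18, a keratin of the trophectoderm, had 6.46 and 4.98 CPM in knockdown, against 8.11 and 11.8 CPM in control (log2 fold change -0.80, SE 0.33). Rrm2, a subunit of ribonucleotide reductase, and Rpl13, a ribosomal protein whose processed pseudogenes make its count uncertain, are targets reported for maternal Yap1 in the mouse embryo. Rrm2 averaged 205 ± 23.6 CPM in knockdown and 216 ± 0.27 CPM in control, and Rpl13 averaged 16.5 ± 6.24 CPM in knockdown and 18.3 ± 3.94 CPM in control. The fold change was above 0 for 7 of the 22 genes and below 0 for 15, against 49.7% above 0 over all genes. Its median was -0.23 on the log2 scale, against -0.0025 over all genes, and none of the 22 passed the test (edgeR). Some of these genes rest on few reads. Axl, Areg and Cdx2, all below 0, had at most 16, 25 and 37 counts in a library, and Crim1, above 0, at most 30.

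Tead factors bind the letters CATTCC, read as GGAATG on the other strand. The 250 bases before the RefSeq start of the target genes (GRCm38.p6) were searched for these letters on both strands, and 6 of the 18 genes with an entry held at least 1 match, against 12.6% of all 32851 promoters of that length. A match describes the letters only, and binding was not measured. Of these 6, the promoters of Ccn1 and Amotl2 were picked by hand and are shown 5′ to 3′ with the match in capitals. Others with a match, such as Ankrd1 and Ptpn14, also had counts in all 4 libraries.
Ccn1, chr3:145649986-145650235, minus strand: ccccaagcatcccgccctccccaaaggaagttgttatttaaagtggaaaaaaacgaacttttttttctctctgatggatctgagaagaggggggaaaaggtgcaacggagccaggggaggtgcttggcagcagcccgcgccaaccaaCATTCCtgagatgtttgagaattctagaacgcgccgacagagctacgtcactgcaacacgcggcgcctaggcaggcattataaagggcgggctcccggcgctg
Amotl2, chr9:102717554-102717803, plus strand: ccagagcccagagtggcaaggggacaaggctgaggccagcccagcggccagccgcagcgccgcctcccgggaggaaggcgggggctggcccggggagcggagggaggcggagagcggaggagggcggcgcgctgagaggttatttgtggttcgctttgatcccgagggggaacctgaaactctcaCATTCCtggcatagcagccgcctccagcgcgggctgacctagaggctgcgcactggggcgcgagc
The match begins 103 bases before the start of Ccn1 and 65 bases before that of Amotl2. Ccn1 and Amotl2 were both present at low levels, with means over 4 libraries of 1.11 and 0.417 CPM per kb, beside 23.1 for Yap1. Over the groups, Ccn1 was higher in both knockdown libraries than in both controls, as were 15.6% of all genes tested. Knockdown replicate 2 (1.62 CPM) was close to control replicate 1 (1.56 CPM). The knockdown replicates of Ccn1 differed by 1.555 on the log2 scale, more than its log2 fold change of 1.31 (edgeR adjusted p 0.9999). Amotl2 overlapped, at 1.89 and 2.67 CPM in knockdown and 3.60 and 2.34 CPM in control.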

How the data were processed

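The authors deposited 1 table of raw counts, whole numbers for 53715 genes in 4 libraries. HISAT2 2.1.0, Picard 2.18.2, Trim Galore 0.6.5, CASAVA 1.8 and mm10 are named in the submitters' processing notes, with no role stated. The sources used here do not give the counting tool, annotation release, strand setting or treatment of duplicates, so reads of overlapping or antisense genes cannot be told apart. The cDNA was pre-amplified and no molecular identifiers are named, so counting errors cover counting only. Symbols, coordinates and exon lengths came from GENCODE M21 on GRCm38, which mm10 also names, and 53620 rows matched.

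The test used R 4.3.3 and edgeR 4.0.16: filterByExpr (minimum 10 counts, 25565 genes kept), TMM scaling, the quasi-likelihood F-test of knockdown against control without covariates, two-sided, Benjamini-Hochberg adjustment over all genes and a threshold of 0.05. Standard errors were derived from the log2 fold change and F. Counts of no pair of libraries were within sampling noise (smallest chi-square over its degrees of freedom 24.6, between the controls), so none was treated as a duplicate. The test was checked on simulated data. At 10 CPM or more, it called 6 of 23 changes of 2-fold and 29 of 35 changes of 4-fold. Over the unchanged genes of all levels it made 9 false calls. Alternatives were DESeq2 1.42.0, limma-voom (limma 3.58.1), other scaling and filters, leaving out each library and a replicate block.

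All 10 genes were named, with every gene of the kinase cassette, the Tead cofactors and the junction partners, except 1 partner that is not reported here. From each other list the 2 genes with the smallest p were named, with Cdx2, Gata3, Ccn1, Ccn2, Rrm2 and Rpl13. The members and lists were chosen with earlier results of these data known.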

Additional observations from a re-analysis of the deposited data

How the results depend on the processing

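None of the 10 genes and none of the 110 neighbours was called under the 11 alternatives where it was tested, which was 2 of the 10 and 70 of the neighbours at a mean of at least 10 CPM, and otherwise all 10 with 109 or 110 neighbours, with a smallest adjusted p of 0.283 for a member (Lats2, edgeR without knockdown replicate 1; up to 1 over the alternatives). Over all genes DESeq2 called 53 genes, 20 higher and 33 lower, and the fits that left out 1 library each called 0 to 3, the 3 without knockdown replicate 1. Of 102 recomputed fold changes of members, 87 kept their direction and 15 did not, 3 of these outside the fits that left out a library, all for Wwtr1: -0.058 with limma-voom, -0.0664 with the replicate block and -0.0665 with the crossed block; the cause was not tested. With 1 library left out, the log2 fold change ran from -0.79 to 0.65 for Wwtr1, -0.44 to 0.64 for Tead1, -0.78 to 0.30 for Tead2, -0.083 to 1.22 for Tead3, -0.63 to 1.75 for Tead4, -0.57 to 0.19 for Lats1, -1.43 to 0.39 for Lats2 and -0.22 to 0.0185 for Nf2. Yap1 (0.17 to 0.19) and Amot (0.28 to 0.51) kept their sign in all of these. The sign turned without knockdown replicate 1 for Wwtr1, Tead1 and Tead4, without knockdown replicate 2 for Tead3, Lats1, Lats2 and Nf2, without control replicate 1 for Wwtr1, Tead1 and Tead4, and without control replicate 2 for Tead2 and Lats1. A lone library was assumed to vary like the other group.

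The labels do not say that equal replicate numbers mark a shared batch. Same-numbered libraries tended only weakly to deviate in opposite directions (r = -0.212 across 8185 genes, which are not independent). The replicate block called 0 genes, with 479 at an unadjusted p under 0.05, and the crossed pairing, added after seeing the data, called 0 with 747, against 984 without a block.

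By the longest transcript in place of merged exons, the share of Tead4 was 10.9% in knockdown and 8.43% in control. That of Yap1 was 97.7% in knockdown and 97.6% in control, and that of Lats1 was 68.4% in knockdown and 63.6% in control. With no length scaling, the share of Tead4 was 5.83% in knockdown and 4.61% in control. That of Yap1 was then 98.0% in knockdown and 97.8% in control, and that of Lats1 74.8% in knockdown and 70.8% in control. With only the unshared bases of Lats2, chosen after seeing the data, the share of Lats1 was 62.5% in knockdown and 57.2% in control. With 1 library left out, the share of Tead4 ran from 12.3 to 13.9% in knockdown and 5.79 to 14.2% in control, that of Yap1 from 94.4 to 97.9% in knockdown and 95.5 to 96.3% in control, and that of Lats1 from 67.1 to 80.9% in knockdown and 67.0 to 72.8% in control. Below about 1 CPM, as for Tead3 and Tead4, the spread between libraries hides differences of several-fold.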
